A study of Mus musculus with 8 samples.

Results

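The 10 genes described here, Pecam1, Cdh5, Kdr, Flt1, Tek, Tie1, Emcn, Vwf, Eng and Esam, are genes of the endothelium, the cell layer that lines blood vessels. They were taken as a given list of 10 among the 22911 gene symbols that the array's probes matched, and 1 probe that carries a RefSeq transcript of the gene stood for each of them. The measurements were made in femoral growth plate cartilage of littermate mice aged 12 days, with 4 mice labelled CreTW and 4 labelled Cre, and 100 ng of RNA from each mouse went on an Agilent array of its own, read in 1 colour. What the genotypes are is background knowledge of this study, since the labels give only their names: all 8 mice carry a Cre recombinase transgene driven in cartilage by the Col2a1 promoter, and the CreTW mice carry in addition a mutant Twinkle, the helicase that replicates mitochondrial DNA, which Cre switches on. That promoter is a promoter of chondrocytes, so the comparison concerns vessels beside a changed cartilage. The title of the study links loss of the respiratory chain in cartilage to slowed growth. The chondrocyte markers Col2a1 (log2 9.66 to 10.18) and Acan (8.47 to 9.10) were bright on all 8 arrays. The share of the 56605 probes that stood well above background ran from 45.4% to 57.9% per array, saturation was seen at no spot, and precision is limited by the number of arrays.

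Growth plate cartilage itself holds no vessels. Vessels reach it from the bone side, where hypertrophic chondrocytes release vascular endothelial growth factor (VEGF), proteases open the mineralised matrix, and the sprouting endothelium brings in the precursors of osteoclasts and osteoblasts. Endothelial RNA in dissected growth plate therefore comes from vessels at its borders and from any tissue taken along with it. Among the 10 genes, Kdr and Flt1 encode the receptors of VEGF, Tek and Tie1 the angiopoietin receptor and its partner, Cdh5, Pecam1 and Esam adhesion proteins of endothelial junctions, Eng a co-receptor of the transforming growth factor beta family, Emcn a surface sialomucin of capillary and venous endothelium that is abundant in the vessels next to the growth plate, and Vwf the clotting factor stored by endothelial cells and platelets.

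Transcription factors of the ETS family bind many endothelial promoters, so the promoters of the genes that varied together below were searched for ETS-type letters. The RefSeq promoter table (GRCm38.p6, 250 bases before to 50 after the start) held 6 of the 10 genes. The letters AGGAAG, on either strand, were in the windows of 4 of these genes (Flt1, Tie1, Emcn and Eng, 2 matches each) and in 35.4% of the 32851 promoters of the table. CGGAAG was in the window of Tie1 and in 16.9% of all promoters. Neither run of letters was in the windows of Kdr and Tek. The shorter core GGAA, which both runs contain, was in all 6 windows and in 96.0% of all promoters, so its presence sets no promoter apart. The 4 windows with matches follow, with AGGAAG and CGGAAG on either strand in capitals. They lie at chr5:147725962-147726261 on the minus strand (Flt1), chr4:118489800-118490099 on the minus strand (Tie1), chr3:137340828-137341127 on the plus strand (Emcn) and chr2:32646345-32646644 on the plus strand (Eng).
Flt1: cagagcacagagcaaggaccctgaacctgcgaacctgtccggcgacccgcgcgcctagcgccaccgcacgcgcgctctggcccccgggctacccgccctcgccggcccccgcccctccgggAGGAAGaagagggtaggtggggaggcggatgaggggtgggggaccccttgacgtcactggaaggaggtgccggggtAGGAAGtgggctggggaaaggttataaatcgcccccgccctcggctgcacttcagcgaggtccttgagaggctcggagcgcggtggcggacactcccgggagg
Tie1: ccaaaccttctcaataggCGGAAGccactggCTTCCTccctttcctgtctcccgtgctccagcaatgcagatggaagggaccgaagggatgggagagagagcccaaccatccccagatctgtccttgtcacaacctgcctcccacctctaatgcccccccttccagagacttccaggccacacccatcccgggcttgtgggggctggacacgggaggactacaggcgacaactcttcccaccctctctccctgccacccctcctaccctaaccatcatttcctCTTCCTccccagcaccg
Emcn: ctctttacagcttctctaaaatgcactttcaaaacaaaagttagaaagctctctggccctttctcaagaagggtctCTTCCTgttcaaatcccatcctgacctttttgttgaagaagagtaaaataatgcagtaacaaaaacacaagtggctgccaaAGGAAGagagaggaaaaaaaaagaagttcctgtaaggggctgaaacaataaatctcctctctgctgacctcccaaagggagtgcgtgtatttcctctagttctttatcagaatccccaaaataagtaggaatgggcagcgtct
Eng: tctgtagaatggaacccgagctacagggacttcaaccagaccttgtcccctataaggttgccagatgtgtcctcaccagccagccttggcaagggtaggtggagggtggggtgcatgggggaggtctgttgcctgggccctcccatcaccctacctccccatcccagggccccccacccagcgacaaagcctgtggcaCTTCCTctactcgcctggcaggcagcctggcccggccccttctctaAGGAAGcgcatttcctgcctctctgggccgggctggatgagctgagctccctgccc

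None of the 10 endothelial genes passed the test between genotypes, and for each of them the CreTW and Cre values overlapped. The log2 differences, CreTW minus Cre, lay between -0.27 (Emcn) and 0.02 (Pecam1), 9 of 10 were below 0, and their median was -0.08, beside a median of -0.01 and 51.6% below 0 over all 23105 features tested. By limma with Benjamini-Hochberg adjustment over all features, 0 of 10 passed an adjusted p of 0.05, where 80 of all features did (0.346%; 0.229% higher and 0.117% lower in CreTW), and 0 of 10 had an unadjusted p under 0.05, where 10.7% of all features did. Levels are given below as the log2 of the processed intensity relative to the array's 75th percentile, and n is 4 arrays per genotype throughout. In such bulk RNA, fewer endothelial cells and less RNA per endothelial cell cannot be told apart.

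Of the VEGF receptors, Kdr, which carries most of the growth signal of VEGF, read 2.53, 2.18, 2.97 and 2.36 on the CreTW arrays, against 2.78, 2.68, 2.65 and 2.04 on the Cre arrays. Its log2 difference was -0.03 ± 0.21 (SE, 95% interval -0.51 to 0.45, limma adjusted p = 0.974). The third CreTW mouse was the highest of all 8 and the fourth Cre mouse the lowest, so each genotype spanned most of the other's range. Flt1, which binds VEGF tightly and limits its signal, read 2.92, 2.89, 3.45 and 2.80 in CreTW, against 3.11, 3.31, 3.03 and 2.84 in Cre. Flt1 had a log2 difference of -0.06 ± 0.16 (95% interval -0.43 to 0.31, limma adjusted p = 0.923). The highest array was again the third CreTW mouse. The intervals correspond to fold changes of 0.702 to 1.37 for Kdr and 0.742 to 1.24 for Flt1, so true changes within these bounds are not excluded with 4 mice per genotype.

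Of the angiopoietin receptors, Tek, also called TIE2, was the most variable of the 10. It read -1.75, -2.59, -0.93 and -2.00 in CreTW, against -1.49, -1.41, -1.11 and -2.32 in Cre. The log2 difference of Tek was -0.23 ± 0.37 (95% interval -1.07 to 0.60, limma adjusted p = 0.844). CreTW mice held both the highest and the lowest value of Tek, which lay 3.16-fold apart. Tie1, the partner receptor with no angiopoietin of its own, read -0.01, -0.78, 0.39 and -0.10 in CreTW, against 0.10, 0.42, 0.25 and -0.58 in Cre. For Tie1 the log2 difference was -0.17 ± 0.28 (95% interval -0.82 to 0.47, limma adjusted p = 0.854). Both receptors were lowest in the second CreTW mouse, and the next lowest value was that of the fourth Cre mouse.

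Of the junction genes, Cdh5, the cadherin that joins endothelial cells, read 1.48, 1.21, 2.20 and 1.47 in CreTW, against 1.81, 1.91, 1.91 and 1.05 in Cre. The values of 3 Cre mice were close together and that of the fourth lay below every CreTW mouse. Its log2 difference was -0.08 ± 0.26 (95% interval -0.67 to 0.51, limma adjusted p = 0.932). Pecam1, the adhesion protein also known as CD31, read -0.40, -0.68, 0.07 and -0.73 in CreTW, against -0.47, -0.32, -0.16 and -0.85 in Cre, a log2 difference of 0.02 ± 0.21 (limma adjusted p = 0.986). Esam, an adhesion molecule of endothelial tight junctions and platelets, read 1.22, 0.92, 1.76 and 1.15 in CreTW, against 1.63, 1.5, 1.56 and 0.89 in Cre, a log2 difference of -0.13 ± 0.22 (limma adjusted p = 0.857). All 3 junction genes had their highest value in the third CreTW mouse and their lowest in the fourth Cre mouse.

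Emcn had the most negative difference of the 10. It read 3.05, 2.71, 3.56 and 3.0 in CreTW, against 3.51, 3.63, 3.31 and 2.95 in Cre. Apart from the third CreTW mouse and the fourth Cre mouse the CreTW values lay below the Cre values, and with all 8 arrays the difference was -0.27 ± 0.20 (95% interval -0.74 to 0.20, limma adjusted p = 0.659). Eng read 2.10, 1.85, 2.15 and 2.05 in CreTW, against 2.23, 2.24, 2.07 and 1.82 in Cre, a log2 difference of -0.05 ± 0.12 (limma adjusted p = 0.906). Vwf was the steadiest, with 0.60, 0.63, 0.83 and 0.79 in CreTW, against 0.83, 0.79, 0.85 and 0.70 in Cre. Its log2 difference was -0.08 ± 0.09 (95% interval -0.28 to 0.12, limma adjusted p = 0.765), the narrowest interval of the 10.

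**Figure D1:**
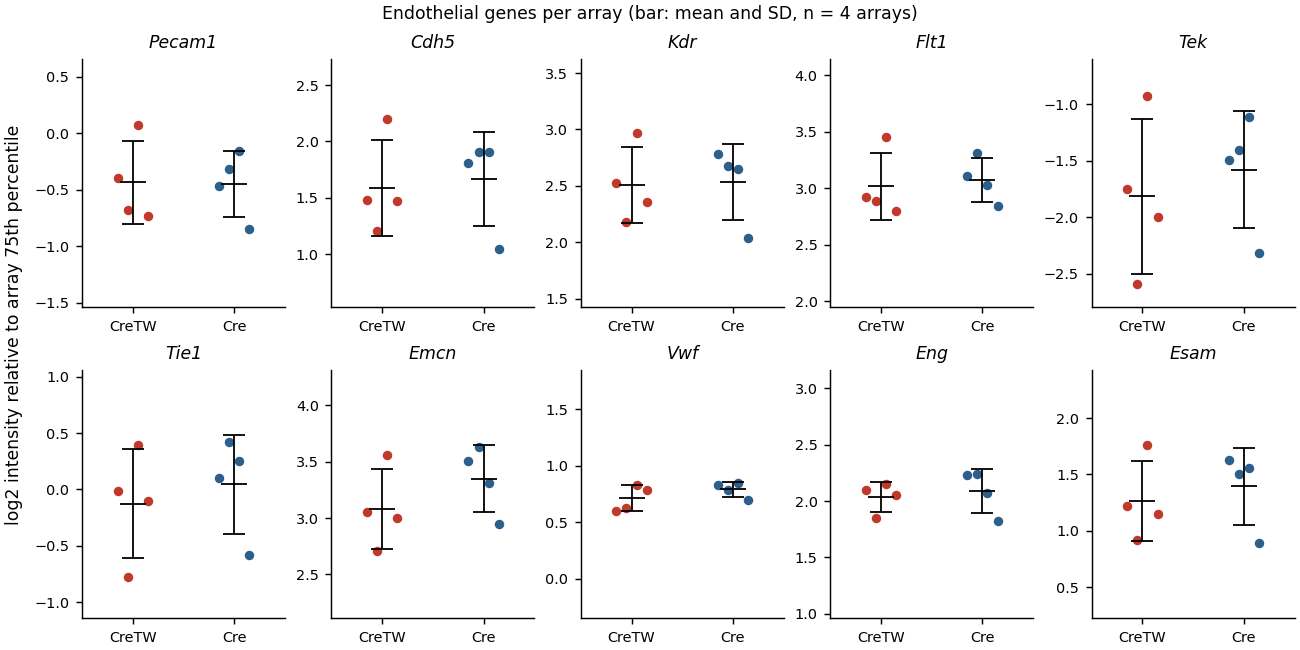
Level of each endothelial gene on the 8 arrays (vertical axis, log2 intensity relative to the array's 75th percentile, each panel spanning the same width), CreTW left and Cre right, with points for mice and bars for mean and SD (n = 4). The groups overlap in every panel, with the widest spread in Tek and the narrowest in Vwf.

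The direction of the difference between genotypes was opposite in the 2 rows of the slide. Mice 1 and 2 of each genotype lay in row 1 and mice 3 and 4 in row 2, so slide position and the mice compared cannot be told apart. In row 1 all 10 genes were lower in CreTW, with a median log2 difference of -0.43, and in row 2 all 10 were higher in CreTW, with a median of 0.21. Emcn was at -0.69 in row 1 and 0.15 in row 2, Cdh5 at -0.52 and 0.35, and Tek at -0.72 and 0.25. The 10 genes varied together across mice, so their shared direction in a row is 1 pattern and not 10 separate ones. The osteoblast and osteoclast markers had medians of -0.98 and -1.85 in row 1, and of 0.16 and 0.22 in row 2. The negative direction of the median over all 8 arrays therefore held in row 1 and was reversed in row 2. With the row as a block the limma adjusted p of Emcn was 0.714. The median also depended on single mice: it was -0.25 without the third CreTW mouse, 0.02 without the second CreTW mouse and -0.24 without the fourth Cre mouse. No member passed the test with any 1 array left out.

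**Figure D2:**
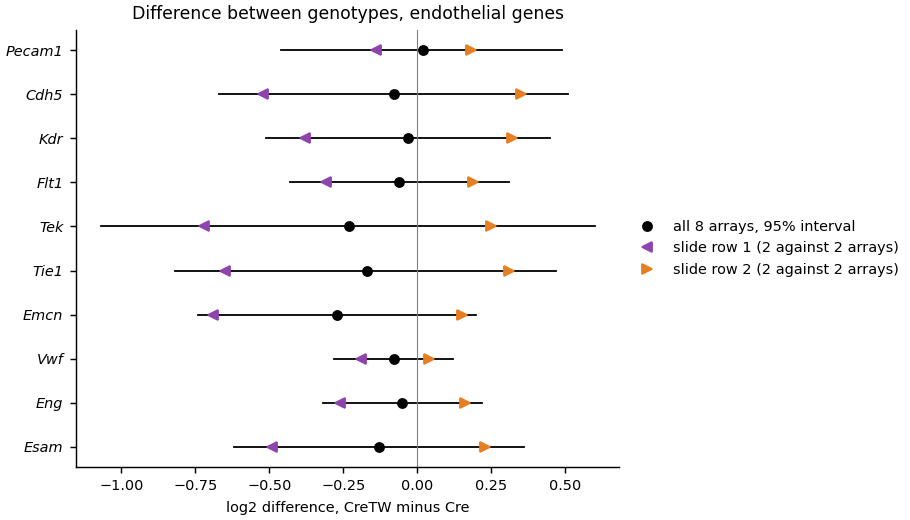
Log2 difference, CreTW minus Cre, of each endothelial gene (horizontal axis) over all 8 arrays (black, with its 95% interval) and within each slide row of 2 against 2 arrays (triangles). All 10 intervals include 0, and the row values lie on opposite sides of 0 for every gene.

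The mice differed from one another more than the genotypes did, and the 10 genes differed together. Of the 45 pairs of members all 45 had a positive Pearson r over the 8 arrays, from 0.49 to 0.98 with a median of 0.86, and within genotypes (values centred on each genotype's mean) the median was 0.89. These are descriptions over the same 8 arrays, which share their scaling. The endothelial score, the mean over the 10 genes of the centred log2 value, was -0.06, -0.40, 0.41 and -0.16 on the CreTW arrays, against 0.17, 0.24, 0.20 and -0.38 on the Cre arrays. The third CreTW mouse held the highest value for 6 of 10 genes. The second CreTW mouse was among the lowest 2 for 8 genes and the fourth Cre mouse for 9.

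The size of the swing differed between members. From the lowest to the highest of the 8 arrays, Tek spanned 3.16-fold, Tie1 2.29-fold and Cdh5 2.21-fold, Pecam1, Kdr, Emcn and Esam between 1.83-fold and 1.91-fold, Flt1 1.58-fold, Eng 1.34-fold and Vwf 1.19-fold. The SD within genotypes of Tek was larger than that of 95.3% of all features tested and that of Vwf larger than that of 10.3%. Esam and Cdh5 followed the score of the other 9 members most closely (r = 0.98 each) and Vwf least closely (r = 0.70). The fold ranges compare arrays for 1 probe at a time and do not compare levels between genes.

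**Figure D3:**
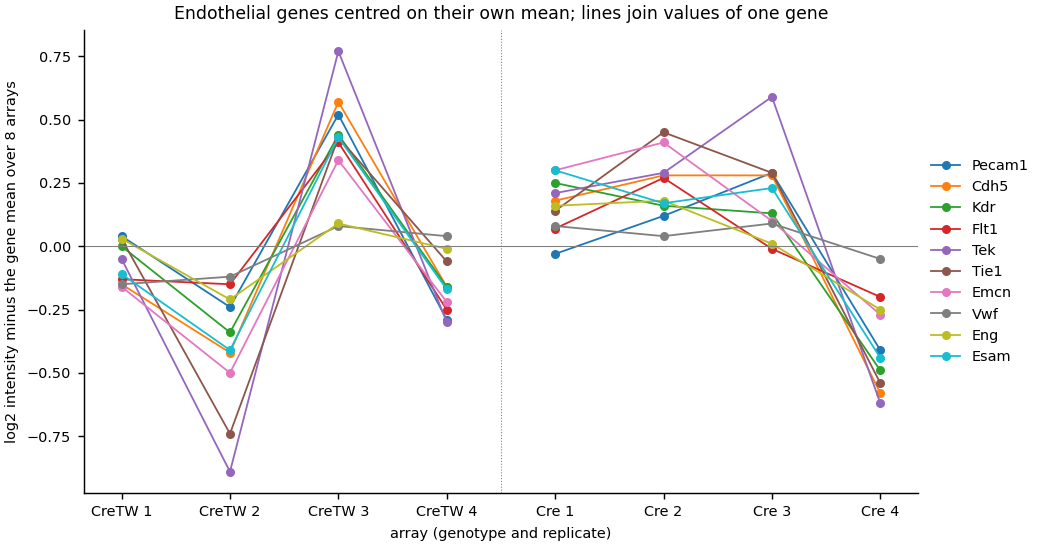
Endothelial genes on each array (horizontal axis, CreTW mice then Cre mice) as log2 intensity minus the gene's own mean over 8 arrays, with lines that join the values of 1 gene within a genotype. Most lines peak at the third CreTW mouse and dip at the second CreTW mouse and the fourth Cre mouse, while Vwf spans 0.25 on the log2 scale.

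The genes with the most similar profile to the endothelial score over the 8 arrays were Lpar6 (Pearson r = 0.991), Mmp13 (0.991), Plekho1 (0.988), Pdgfb (0.987), Tcim (0.987), Notch4 (0.986), Anxa3 (0.978), She (0.978), Frmd4a (0.975) and Slc7a7 (0.974). They are the 10 highest of the features with a symbol, so their r is a description. Pdgfb encodes the growth factor by which endothelial cells recruit mural cells, Notch4 is a Notch receptor of endothelium, and Mmp13 is the collagenase of hypertrophic chondrocytes and osteoblasts that clears cartilage matrix. Mmp13 read 5.33, 4.57, 5.97 and 5.01 in CreTW, against 5.66, 5.68, 5.73 and 4.57 in Cre. Pdgfb read 2.30, 1.85, 2.91 and 2.20 in CreTW, against 2.73, 2.84, 2.84 and 1.83 in Cre. Both peaked and dipped in the same mice as the endothelial genes. Without the 2 arrays whose scores lay farthest from the median, the second CreTW and the fourth Cre mouse, r of the 10 genes was 0.94 to 0.99.

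Markers of bone cells followed the endothelial score, and markers of chondrocytes ran against it. Over the 8 arrays the median r with the score was 0.90 for 8 osteoblast markers, 0.83 for 7 osteoclast markers, 0.82 for 7 leukocyte markers and -0.67 for 10 chondrocyte markers, beside -0.11 over all 23105 features. Single markers ranged from 0.53 (Alpl) to 0.95 for osteoblasts and from 0.80 to 0.91 for osteoclasts. The range was -0.38 (Itgam) to 0.90 for leukocytes and -0.81 to -0.08 (Col10a1) for chondrocytes. Bglap, which encodes osteocalcin, Dmp1, a matrix protein of osteocytes, and Phex, an endopeptidase of osteoblasts and osteocytes, were at 0.94, 0.95 and 0.95 (chosen after their values were seen). Other osteoblast markers were lower, with Col1a1 at 0.56 and Sp7 at 0.58. Without the 2 farthest arrays the median r was 0.77 for osteoblast, 0.66 for osteoclast, 0.50 for leukocyte and -0.37 for chondrocyte markers. The osteoblast score was -0.28, -0.62, 0.50 and -0.23 in CreTW, against 0.38, 0.46, 0.28 and -0.49 in Cre, and its order across mice resembled that of the endothelial score. The chondrocyte score was highest in the fourth Cre mouse (0.56) and lowest in the third CreTW mouse (-0.33).

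Markers of other tissues that the dissection could include were set beside the endothelial genes. Scores of 13 skeletal muscle markers were -1.14, 3.27, 2.83 and 1.80 in CreTW, against -2.08, -2.91, 0.32 and -2.09 in Cre, and their median r with the endothelial score was -0.16. The second CreTW mouse, with the highest muscle score, had the lowest endothelial score. The third CreTW mouse, with the next highest muscle score (2.83), had the highest endothelial score (0.41). None of the 13 muscle markers passed the test, and 10 had an unadjusted p under 0.05 (limma), beside 10.7% of all features. With the muscle score as a covariate the median log2 difference of the 10 genes was -0.14, and with the leukocyte score as a covariate it was 0.19, each with 0 members past the test. The leukocyte score was -0.82 to 0.16 in CreTW, against -0.61 to 0.64 in Cre, and the osteoclast score -1.45 to 0.43 in CreTW, against -0.59 to 0.88 in Cre. Mural cell, fibroblast and lymphatic markers are given with their groups below.

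**Figure D4:**
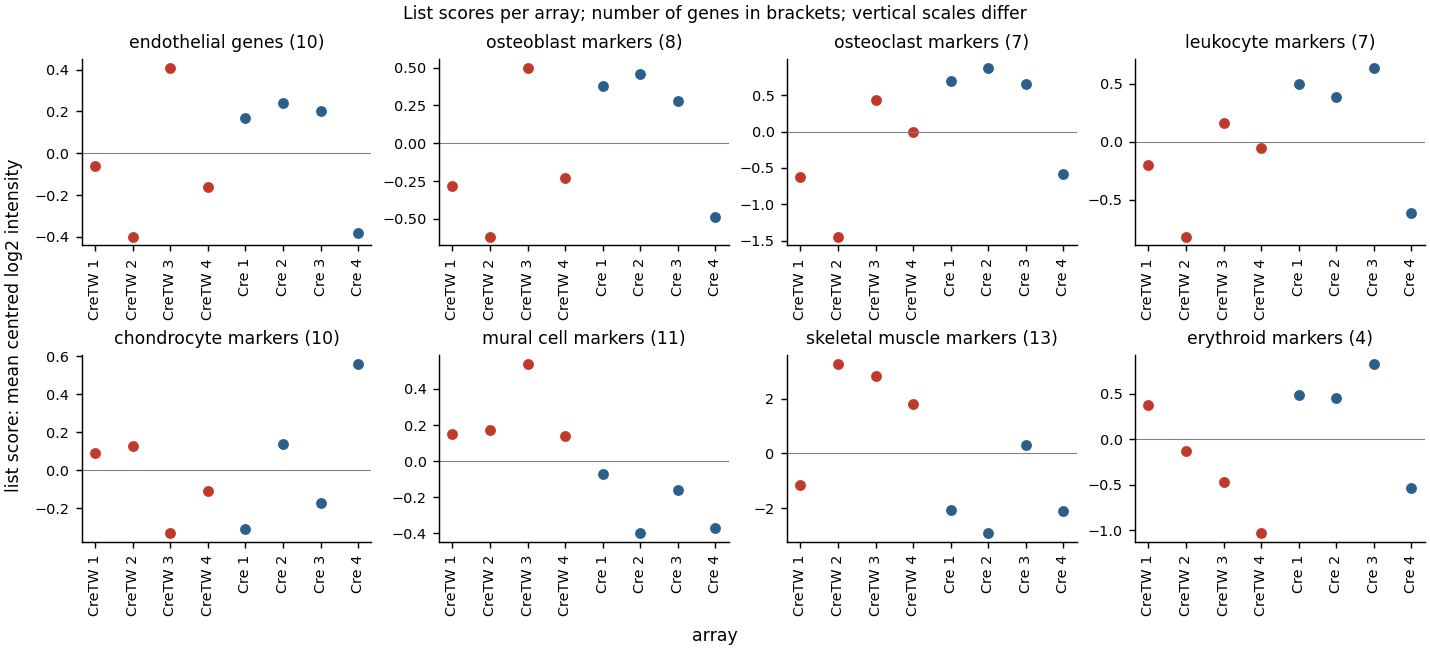
List scores (vertical axis, mean centred log2 intensity, with scales that differ between panels) on each of the 8 arrays, CreTW left in red and Cre right in blue. The osteoblast, osteoclast and leukocyte panels have low values in the same mice as the endothelial panel (the second CreTW mouse and the fourth Cre mouse), the chondrocyte panel has its highest value in the fourth Cre mouse, and muscle scores are above 1 in 3 CreTW mice and in no Cre mouse.

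Vessel-related genes outside the 10 members were taken from 7 lists of 97 genes, 92 of them tested. None passed the test over all features (limma). Unadjusted p-values were under 0.05 for 13 of the 92 (14.1%), 10 higher and 3 lower in CreTW, beside 10.7% of all features, and the 2 genotypes did not overlap for 8 of the 92 (8.7%), beside 6.7% of all features. Over the 7 lists together both shares lie near the background, and the basement membrane genes are given on their own below.

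Among ligands and co-receptors 0 of 12 tested genes changed, and the median log2 difference was -0.16. Vegfa, the ligand that draws vessels into cartilage, read 2.43, 2.34, 2.69 and 2.11 in CreTW, against 1.65, 2.15, 2.14 and 2.09 in Cre. Its log2 difference was 0.39 ± 0.16 (95% interval 0.03 to 0.74, limma adjusted p = 0.439). The genotypes overlapped by 1 CreTW value, and the 4 probes of Vegfa disagreed in size, with differences of 0.39 for the brightest and 0.63, 0.06 and 0.11 for the others. Angpt1, the ligand that activates TEK, was at -0.18 ± 0.15 and Angpt2, its context-dependent antagonist, at 0.12 ± 0.22 (limma adjusted p = 0.699 and 0.868). The VEGF co-receptors Nrp1 and Nrp2 were at -0.02 ± 0.11 and -0.22 ± 0.22, and Pdgfb at -0.25 ± 0.28. Vegfa was not among the genes that followed the endothelial score (r = 0.11), whereas Angpt1 (0.94), Nrp1 (0.87) and Nrp2 (0.90) had high values of r.

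Of the other endothelial genes 0 of 22 changed, with a median of -0.09. Cd34, a sialomucin of endothelial and progenitor cells, was at 0.02 ± 0.16, and Egfl7, a secreted protein of endothelium, at -0.13 ± 0.13. Nos3, the endothelial nitric oxide synthase, was at -0.06 ± 0.17 (chosen after its values were seen). The 2 of these 22 genes with unadjusted p-values under 0.05 (limma), beside 10.7% of all features, were Cldn5 and Stab2. Both were chosen after their values were seen. Cldn5, the claudin of endothelial tight junctions, read 1.40, 1.19, 2.19 and 1.51 in CreTW, against 2.44, 2.58, 2.24 and 1.59 in Cre (log2 difference -0.64 ± 0.27, unadjusted p = 0.0417, limma adjusted p = 0.448). The difference lay in slide row 1 (-1.21) and was near 0 in row 2 (-0.06).

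Stab2, a scavenger receptor of sinusoidal endothelium such as that of bone marrow, was the 1 gene of this list whose genotypes did not overlap (6.7% of all features did not). It read -3.41, -3.93, -2.59 and -3.26 in CreTW, against -1.99, -1.94, -2.02 and -2.39 in Cre, well above background in 2 of 4 CreTW and in all 4 Cre mice. Its 4 Cre values alone were enough to enter the test, so its separation carries no weight. The size of its difference rests in part on CreTW values not well above background. The difference of Stab2 was -1.21 ± 0.26 on the log2 scale (unadjusted p = 0.00125), and over all features it did not pass (limma adjusted p = 0.153). A second probe, well above background in 2 CreTW and 3 Cre mice, was at -1.78. The difference had the same direction in both slide rows (-1.70 and -0.72). With array weights and without the third CreTW mouse its limma adjusted p was 0.0406 and 0.0353. With the endothelial score as a covariate, added after seeing the data, it was 0.0175. Stab2 did not pass under any other alternative that tested it. The adjusted p was 0.557 with no filter on dim probes, 0.294 with the replicate block and 0.229 with the row block. It was 0.124 to 0.41 with any other mouse left out. With normexp background correction the difference was -0.48. Stab1, the related receptor found on sinusoidal endothelium and macrophages, was at -0.31 ± 0.22.

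Of the transcription factors and the Notch pathway 0 of 15 and 0 of 11 tested genes changed, with medians of -0.24 and -0.40. The ETS factor Erg was at 0.06 ± 0.13, its relative Elk3 at -0.12 ± 0.09, the Sox factor Sox17 at 0.25 ± 0.27, and Klf4, a factor with roles in many cell types, at 0.11 ± 0.12. Erg did not follow the endothelial score (r = -0.57), whereas Sox18, another Sox factor of endothelium, did (0.93, chosen after its values were seen). Dll4, the Notch ligand of sprouting tip cells, read -2.15, -2.86, -2.51 and -3.47 in CreTW, against -2.08, -1.74, -2.18 and -3.12 in Cre, with 3 mice of each genotype well above background (log2 difference -0.47 ± 0.35, limma adjusted p = 0.655). Notch1 and Notch4 were at 0.01 ± 0.14 and -0.13 ± 0.19. Hes1, a target of Notch chosen after its values were seen, had an unadjusted p under 0.05 (-0.67 ± 0.27, limma adjusted p = 0.428).

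Among the proteases that open cartilage to vessels 0 of 12 changed. Mmp9, the gelatinase of osteoclasts and of cells at the vascular front, read 4.51, 3.63, 5.47 and 4.67 in CreTW, against 5.39, 5.96, 5.74 and 4.75 in Cre. Its log2 difference was -0.89 ± 0.39 (95% interval -1.79 to 0.00, limma adjusted p = 0.468), with -1.61 in slide row 1 and -0.18 in row 2. Ctsk, the collagen-degrading cathepsin of osteoclasts, was at -0.62 ± 0.41, Mmp13 at -0.19 ± 0.35, Mmp14, a membrane-bound metalloproteinase, at 0.01 ± 0.13, and Ctsb, a lysosomal cathepsin, at 0.02 ± 0.11. Mmp9 and Ctsk are also osteoclast markers, and like that list they were lowest in the second CreTW mouse. Ctsl, another lysosomal cathepsin, read 4.43, 4.34, 4.55 and 4.44 in CreTW, against 4.07, 3.91, 3.98 and 4.0 in Cre, with no overlap (log2 difference 0.45 ± 0.08, limma adjusted p = 0.0874). It was chosen after its values were seen, and it did not follow the endothelial score (r = -0.05).

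Among inhibitors of vessel growth 0 of 11 changed and the median was 0.09. Cnmd, which encodes chondromodulin, an anti-angiogenic protein of avascular cartilage, was at -0.21 ± 0.24 (limma adjusted p = 0.771) and ran against the endothelial score (r = -0.70), as did the thrombospondin gene Thbs1 (0.09 ± 0.20, r = -0.82). The matrix protein gene Sparc was at -0.06 ± 0.13 (r = 0.51). Over the 11 genes r ran from -0.82 to 0.90, with a median of -0.34, and the collagen gene Col18a1 had the highest value. Timp2 and Timp3, inhibitors of metalloproteinases, were the 2 of the 11 that did not overlap between genotypes, beside 6.7% of all features. Timp2 was at 0.36 ± 0.12 and Timp3 at 0.46 ± 0.11 (limma adjusted p = 0.344 and 0.214), and Timp3 was chosen after its values were seen.

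Genes of the vessel wall around the endothelium did not pass the test either. Of 9 basement membrane genes 0 changed at the adjusted threshold, 7 had positive differences, and the median was 0.20. Unadjusted p-values were under 0.05 for 4 of the 9 (limma), beside 10.7% of all features. The genotypes did not overlap for 4 of the 9, beside 6.7% of all features. The list score was 0.03 to 0.13 in CreTW, against -0.12 to -0.05 in Cre. The laminin chain gene Lamc1 read 3.71, 3.64, 3.81 and 3.59 in CreTW, against 3.45, 3.30, 3.14 and 3.26 in Cre (log2 difference 0.40 ± 0.09, limma adjusted p = 0.196, chosen after its values were seen). The laminin chain gene Lamb1, chosen after its values were seen, was at 0.33 ± 0.10, also without overlap. Lama4 and Lama5, laminin chain genes as well, did not overlap either and were at 0.20 ± 0.08 and 0.28 ± 0.11. The collagen gene Col4a1 was at 0.22 ± 0.13, while Hspg2, which encodes perlecan, was at -0.08 ± 0.17 and Nid2, a nidogen, at -0.17 ± 0.19. Laminins and collagen IV are not made by vessels alone. The part of the muscle score in these values was not tested. Nor was that of the fibroblast and perichondrium score, at 0.13 to 0.30 in CreTW, against -0.58 to 0.01 in Cre. The first CreTW mouse had Lamc1 and Lamb1 values (3.71 and 3.89) above those of every Cre mouse. Its muscle score of -1.14 lay below that of the third Cre mouse (0.32) and above those of the other Cre mice (-2.08, -2.91 and -2.09). This describes a single mouse and genes chosen after their values were seen.

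Of 11 mural cell markers 0 passed the test, 8 had positive differences and 4 did not overlap (6.7% of all features did not). Des is among these 4, and it entered the test through its CreTW values, so its separation carries no weight. The mural score was 0.14 to 0.54 in CreTW, against -0.40 to -0.07 in Cre. Without Des, a choice made after seeing the data, it was 0.17, -0.01, 0.41 and -0.01 in CreTW, against 0.07, -0.27, -0.13 and -0.25 in Cre, so that the genotypes overlapped and the difference in mean score was 0.29, against 0.50 with Des. Acta2, smooth muscle actin, read 4.74, 4.24, 4.49 and 4.40 in CreTW, against 3.74, 3.03, 3.61 and 3.59 in Cre (log2 difference 0.97 ± 0.17, limma adjusted p = 0.0822). These are values of its brightest probe, and its probes disagreed in size. A probe almost as bright, well above background in all 4 mice of each genotype, was at 0.24. A dimmer probe was at 1.22. Acta2 passed with normexp background correction, a filter on all 8 arrays and a robust variance model (limma adjusted p = 0.0239, 0.0473 and 0.0294). With the mean of probes it did not (difference 0.81, limma adjusted p = 0.0886). Its difference was 1.06 (adjusted p = 0.718) once the muscle score was a covariate, in a fit where 4 of all features passed. Rgs5, a pericyte gene, was at 0.72 ± 0.15 (limma adjusted p = 0.145). Des, which encodes the desmin of pericytes and muscle, was at 2.64 ± 0.47 (limma adjusted p = 0.0822), with 1 of 4 Cre mice above background. Both Rgs5 and Des were chosen after their values were seen. The pericyte receptor gene Pdgfrb was at -0.12 ± 0.17, and Cspg4, a pericyte proteoglycan gene also used by chondrocytes, was at 0.10 ± 0.19. The fibroblast and perichondrium score was likewise 0.13 to 0.30 in CreTW, against -0.58 to 0.01 in Cre, and its part in the mural values was not tested.

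**Figure D5:**
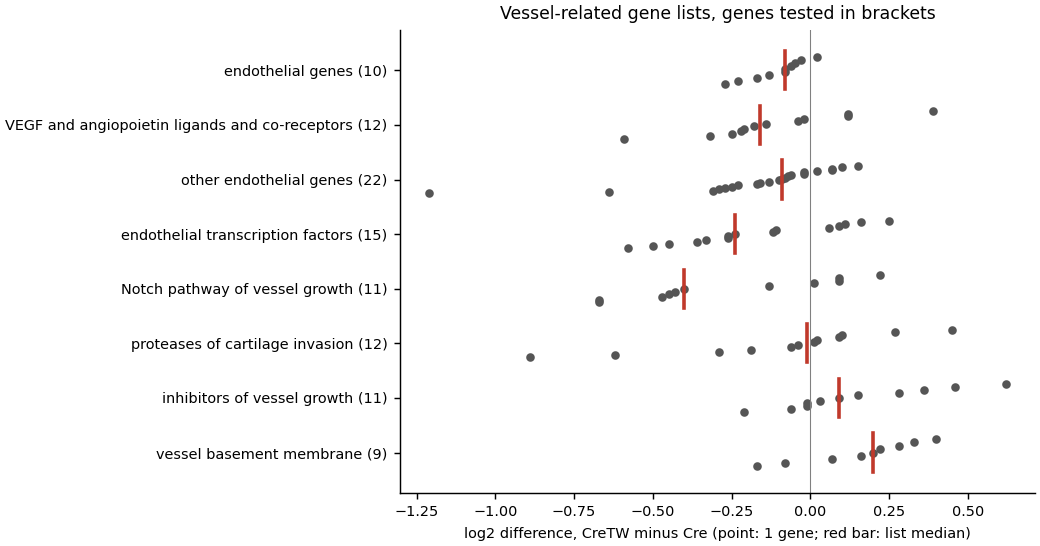
Log2 difference, CreTW minus Cre (horizontal axis), of each tested gene (points) in the endothelial list and 7 vessel-related lists, with list medians as red bars. The endothelial genes lie between -0.27 and 0.02, the 2 genes farthest to the left are Stab2 at -1.21 and Mmp9 at -0.89, and most basement membrane genes lie right of 0.

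Markers of lymphatic vessels were mostly too dim to test. Prox1, which specifies lymphatic endothelium, was well above background in 0 of 8 mice, Lyve1, a hyaluronan receptor of lymphatic endothelium, in 2 CreTW and 0 Cre mice, and Flt4, the VEGF-C receptor, in 2 CreTW and 1 Cre mice. The chemokine gene Ccl21a read -0.20, 0.08, -0.22 and -0.15 in CreTW, against -4.27, -5.44, -2.52 and -3.35 in Cre, where 1 of 4 mice was above background. It entered the test through its CreTW values and passed it (log2 difference 3.77 ± 0.53, limma adjusted p = 0.0272, and 0.0147 to 0.107 with 1 mouse left out), with a size that rests on Cre values mostly not above background. The call was lost with any 1 of the 4 CreTW mice or with the first or the fourth Cre mouse left out. It was also lost with no filter on dim probes (adjusted p = 0.128), in either slide row alone, and with the leukocyte score (0.0981) or the muscle score (difference 2.81, adjusted p = 0.718) as a covariate. With normexp background correction the difference was 1.42 (adjusted p = 3.56e-05). Near-identical gene copies make the probe uncertain for a single gene. Ccl21a did not follow the blood endothelial score (r = -0.28). Of the megakaryocyte and platelet markers, which bear on Vwf and Esam, Itga2b was well above background in 0 CreTW and 1 Cre mice, and Pf4 was at 0.21 ± 0.25 (limma adjusted p = 0.785). Ptprc, the pan-leukocyte antigen CD45, was at -0.81 ± 0.43 (limma adjusted p = 0.546).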

How the data were processed

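RNA of 4 CreTW and 4 Cre growth plates was labelled with Cy3 and hybridised to 8 arrays of 1 slide. Per the file headers, the authors extracted the processed signal intensity with Agilent Feature Extraction 11.5.1.1. The series design names GeneSpring 14.9 for their analysis, whose settings are not given in the sources used here. The authors' deposited value table holds log2 values of the same arrays and was used as an alternative. Spots of a probe were averaged without outlier flags, control spots were left out, and log2 intensity was set relative to each array's 75th percentile. A probe was kept if it stood well above background on 4 or more of the 8 arrays, with the brightest probe per gene, which left 23105 features. Probes took their gene symbol from the RefSeq accession (32994 of 56605 had 1 symbol, 23611 had none). Genotypes were compared in limma 3.58.1 (R 4.3.3, lmFit and eBayes) with Benjamini-Hochberg adjustment over all features at 0.05, and the code was tested on simulated data. Errors beside differences are limma standard errors.

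The endothelial genes and the other lists were chosen with earlier results of these data known. The genes named are the 10 members, a fixed set of pathway and marker genes, up to 4 genes past the threshold or otherwise the 2 brightest of each list, and the 10 most similar to the endothelial score. Others were chosen after their values were seen and are marked so, except Thbs2 and Pdpn, which were chosen in the same way. Flt4, Stab1, Pdgfrb, Nid2, Lama4 and Lama5 were named outside these rules, with their values known. Alternatives were another scaling, normexp background correction with an offset of 50, other filters, the mean of probes, the replicate number or slide row as a block, each slide row alone, another variance model, array weights, marker scores as covariates, and each array left out. The deposited files used here held median and not mean signals, so normexp was run on the median signal intensity. The labels call the samples separate mice, and the replicate numbers gave no sign of pairing them.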

Additional observations from a re-analysis of the deposited data

Results flagged for a closer look

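In groups of 4 mice, a single mouse lay far from the other 3 in 18 of the 166 gene and genotype groups examined, where chance would give about 1 in 20 if the groups were independent. They are not, since many of the genes vary together and some were chosen for their profile, so the count cannot be read against that rate. The mouse was the fourth Cre mouse in 10 of the 18, in each case below the rest of its group. Among endothelial genes these were Cdh5 at log2 1.05 (the others at 1.81 to 1.91) and Kdr at 2.04 (2.65 to 2.78). Among genes that followed the endothelial score they were Pdgfb at 1.83 (2.73 to 2.84), Mmp13 at 4.57 (5.66 to 5.73), Plekho1 at 2.23 (3.04 to 3.08) and Anxa3 at 2.59 (2.88 to 2.91). Among osteoclast, platelet and macrophage markers they were Ctsk at 6.61 (7.79 to 7.98), Acp5 at 8.16 (9.49 to 9.70), Itgb3 at 2.31 (3.82 to 4.12) and Csf1r at 4.41 (5.59 to 5.61).

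Other Cre mice stood apart for Vegfa, at 1.65 in the first mouse (the others at 2.09 to 2.15), for Notch1, at 2.21 in the first (1.72 to 1.75), and for Angpt2, at 1.05 in the third (the others at 1.90). In CreTW, Klf4 was at 5.45 in the first mouse (5.17 to 5.22) and Des at -2.21 in the first (-0.49 to -0.17). Thbs2 was at 4.16 in the second CreTW mouse (4.28 to 4.30). Itgam was at 7.21 in the fourth CreTW mouse (7.40 to 7.43) and Pdpn at 3.22 in the fourth (3.02 to 3.05).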

How the results depend on the processing

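The count of endothelial genes past the test was 0 of 10 in the reported analysis and under all 24 alternatives. Their median log2 difference of -0.08 was -0.43 in slide row 1 alone and 0.21 in row 2 alone, 0.19 with the leukocyte score as a covariate, and -0.25 to 0.02 with 1 mouse left out. Over all features, 80 passed, against 27 where dim probes were not filtered out, 12 in the paired fit (replicate number as a block), 53 with the slide row as a block, 0 in either slide row alone, 127 with array weights, 4 with the muscle score as a covariate and 42 to 75 with 1 mouse left out. Of the vessel-related genes 0 passed, against 2 with normexp (Ctsl and Lamc1), 1 with the trended and robust variance model (Ctsl), 2 with array weights (Ctsl and Stab2), 1 with the endothelial score as a covariate, added after seeing the data (Stab2), and 0 to 1 with 1 mouse left out. Mice of the same replicate number correlated at -0.10 to 0.31 in their deviations from the genotype means, and mice of different numbers at -0.50 to 0.40. The numbers thus gave no sign of pairing, and a pairing by litter was not tested. With the replicate block the adjusted p of Ccl21a was 0.136. Of 1985 values of single genes under alternatives, 183 changed sign, in 58 of 83 genes, none with either side past the test. With 4 mice per genotype and dim probes such as Stab2, Dll4 and Des near background, moderate changes could be missed.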

Other observations

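Markers of blood and fat, which share the marrow with sinusoidal vessels, were not members of any comparison above. The erythroid score was 0.38, -0.13, -0.47 and -1.03 in CreTW, against 0.49, 0.45, 0.83 and -0.53 in Cre. Of 4 tested markers 0 passed (limma), and 1 had an unadjusted p under 0.05, beside 10.7% of all features. The haemoglobin genes Hba-a1 and Hbb-bt were at log2 differences of -0.62 and -0.64. Unlike the endothelial genes, all 4 erythroid markers were below 0 in both slide rows, with medians of -0.38 and -0.89, and the difference from the endothelial genes was not tested. Adipoq, which encodes the fat hormone adiponectin, was well above background in 1 CreTW and 3 Cre mice and did not pass the test (limma adjusted p = 0.465), while Fabp4, a fatty acid binding protein of fat and endothelium, was at a log2 difference of 0.03.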
